A study of Mus musculus with 40 samples.

Results

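Fibroblasts from adult mouse hearts that lacked functional TAK1 were compared with and without basic fibroblast growth factor (bFGF) to ask which transcripts the ligand raises or lowers when this kinase has been deleted. The comparison rests on 8 of the 40 libraries of the series, 4 that received bFGF and 4 that received no ligand, and on all 25210 of 55414 listed genes that had at least 10 counts over the 40 libraries. All cells came from hearts of TAK1fl/fl mice (C57BL/6J background), were used at passage 1 and were expanded in medium with serum and bFGF. They were infected with the adenovirus Ad-CMV-iCre, in which the ubiquitously active CMV promoter drives Cre recombinase, for 48 h and rested for 48 h, and were then kept in serum-free medium with bFGF at 20 ng/ml or without ligand for 24 h. The same 2 media were given to fibroblasts infected with Ad-CMV-LacZ, which expresses β-galactosidase and leaves the floxed allele intact. Those 8 LacZ libraries enter only where TAK1-deleted and LacZ cells are set side by side, in their levels or in their response to bFGF. The legend of the study's sequencing figure gives 4 biological replicates, all male, for each group, and the series holds 10 groups. All 8 TAK1-deleted cultures carried Cre and the virus, and the effects of Cre and of the deletion cannot be told apart wherever iCre is set against LacZ.

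The 8 libraries held between 25360947 and 66160732 counted reads. Values are given as CPM, reads scaled to library size with TMM factors, in the order of replicates 1 to 4. Since CPM are not per length, levels are compared between libraries and not between genes. The exception is a ranking of genes by gain or loss in CPM, which transcript length affects. *Map3k7*, the gene for TAK1 (ENSMUSG00000028284, chromosome 4, 31964097 to 32023467, plus strand), lay at 138, 132, 136 and 144 CPM in TAK1-deleted cells without ligand and at 169.6, 154, 169.6 and 172 CPM in LacZ cells without ligand. It was lower in the deleted cells, with a log2 fold change of -0.28 (SE 0.06, adjusted p = 0.00393), and the 2 groups did not overlap. With bFGF, *Map3k7* lay at 175, 142, 168 and 176 CPM in TAK1-deleted and at 223, 184, 232 and 233 CPM in LacZ cells (log2 fold change -0.40, SE 0.07, adjusted p = 0.000409). Cre removes exon 2, which encodes the ATP-binding site, whereas the counts cover all exons. RNA from the recombined allele is therefore still counted, and the share of deleted cells cannot be read from these values. Of 11 fibroblast markers all were detected, and their summed level lay between 22645 and 40384 CPM without ligand and between 19148 and 28335 CPM with bFGF.

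Markers of other cell types were present at different levels, and some of them moved with bFGF. The 7 endothelial markers summed to between 15.8 and 23.3 CPM without ligand and between 13.4 and 20.0 CPM with bFGF. The 10 leukocyte and macrophage markers summed to between 36.9 and 94.3 CPM without ligand and between 28.6 and 71.6 CPM with bFGF, and their only called member was *Lyz2*, lysozyme (71.6, 20.4, 21.2 and 68.3 CPM without ligand, 52.5, 12.6, 14.1 and 46.7 CPM with bFGF, log2 fold change -0.58, SE 0.08, adjusted p = 0.000109). Cardiomyocyte markers, of which 7 of 9 were tested and *Nppa* was at 0 in all 8 libraries, summed to between 9.18 and 49.5 CPM without ligand and between 4.54 and 18.7 CPM with bFGF. Their called member was *Tnnt2*, cardiac troponin T, at 47.0, 6.91, 44.2 and 22.1 CPM without ligand and 15.9, 1.16, 6.27 and 4.02 CPM with bFGF (log2 fold change -2.33, SE 0.16, adjusted p = 6.81e-08). Mesothelial markers summed to at most 10.8 CPM, and Schwann cell and adipocyte markers to at most 18.2 CPM, each with 1 member lowered. Pericyte and smooth muscle markers summed to between 401 and 1107 CPM without ligand and between 376 and 1365 CPM with bFGF, with 2 raised and 2 lowered members of 7. Among the endothelial markers 2 rose and 3 fell, and among the fibroblast markers 1 rose (*Thy1*) and 5 fell. In such bulk samples, fewer cells of a type and less RNA per cell cannot be told apart, and the part of these cells in the results was not tested.

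bFGF, also called FGF2, binds FGF receptors together with heparan sulfate, and the receptors signal through RAS to the kinase ERK and through PI3K to AKT. ERK phosphorylates transcription factors of the ETS family and stabilises AP-1 proteins, and the genes they switch on include both growth genes and inhibitors of the pathway itself. In cardiac fibroblasts bFGF is known as a mitogen that holds back the contractile myofibroblast state. TAK1 is a MAP3 kinase on a separate route, from receptors for IL-1, TNFα and TGFβ to NF-κB, JNK and p38.

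The TAK1-deleted library of replicate 2 with bFGF stood apart from the other 3. It was the deepest of the 8 libraries, and its response was smaller. Over the 13214 genes that averaged 1 CPM or more, the change in pair 2 followed the mean change of the other 3 pairs with a slope of 0.413, whereas the slopes of pairs 1, 3 and 4 were 1.11, 1.15 and 1.07. In LacZ cells the slopes were 0.996, 0.756, 0.945 and 1.02 for pairs 1 to 4. The standard deviation of the log2 changes over these genes was 0.36 in pair 2 and 0.58, 0.58 and 0.55 in pairs 1, 3 and 4. Some ligand-responsive genes were also higher before treatment in replicate 2 than in the other replicates in both genotypes, *Dusp6* among them. Counts are therefore also given without each replicate number, pair 2 included.

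With bFGF, 2340 genes (9.28% of those tested) rose and 1867 (7.41%) fell at an adjusted p of at most 0.05, and the median log2 fold change of all genes tested was 0.00. The fit was edgeR's quasi-likelihood test with the replicate number as a block, adjusted over all genes. Among the 13214 genes of at least 1 CPM, 16.6% rose and 13.2% fell. Each gene list is set against these 2 shares, but the lists were not limited to genes of at least 1 CPM. The shares of all genes tested, 9.28% and 7.41%, are therefore a second background. Most changes were modest, since 632 of the raised and 417 of the lowered genes had an absolute log2 change of 1 or more, and the median was 0.53 among raised and -0.58 among lowered genes. Of the 4207 called genes, 3721 (88.4%) changed in the same direction in all 4 pairs, and 94.8% were protein-coding. The 2 groups did not overlap in 1766 genes that were higher with bFGF (7.01%) and in 816 that were lower (3.24%). Leaving out replicate 2 raised the counts to 3335 and 3212 genes, and leaving out replicates 1, 3 and 4 gave 1389, 1397 and 1146 raised and 1283, 849 and 954 lowered genes. Without the pairing, the differences between cultures of different number entered the error, and 450 genes (1.79%) rose and 160 (0.635%) fell.

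**Figure D1:**
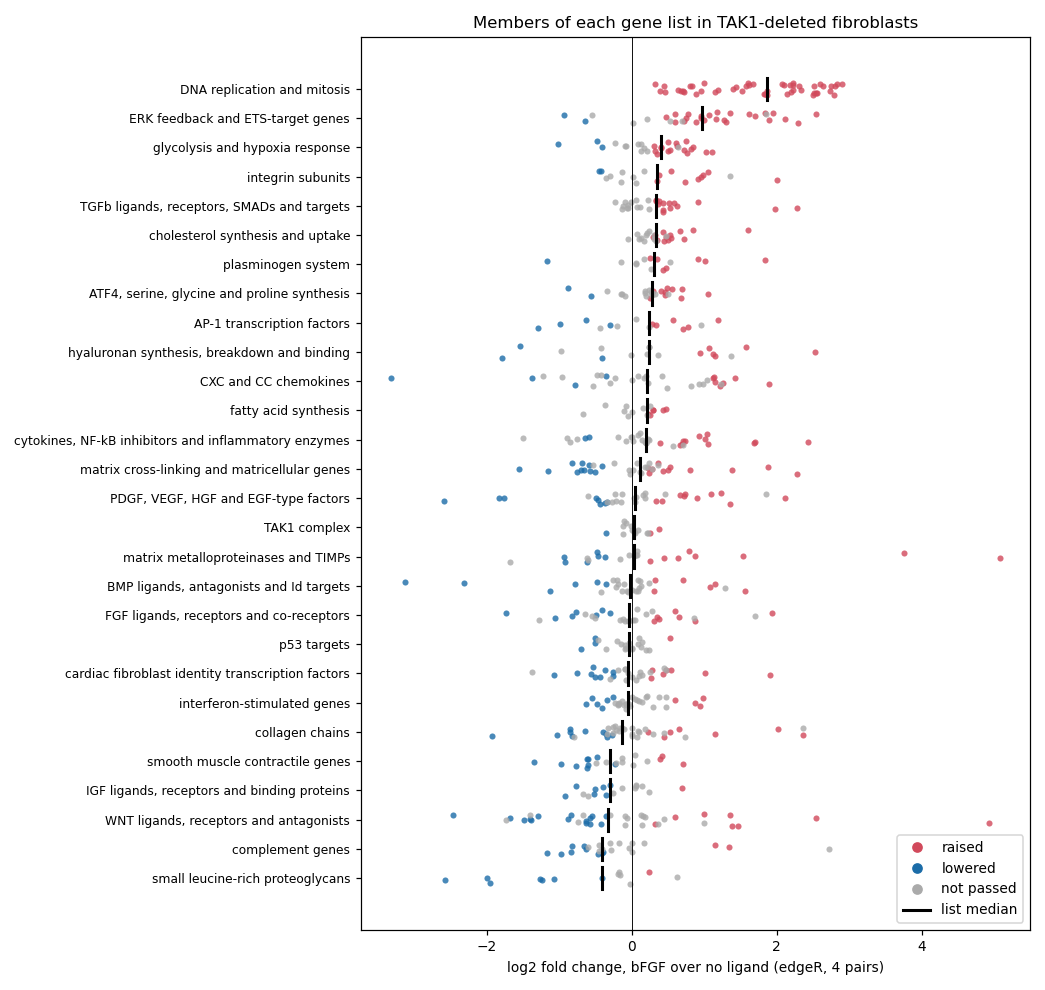
Log2 fold change with bFGF in TAK1-deleted fibroblasts (x axis, edgeR, 4 pairs) for each member of 28 gene lists (rows, ordered by their median). Points are genes, coloured by whether they were raised, lowered or not past the threshold, and black bars are list medians. All 49 genes of DNA replication and mitosis lie to the right of 0, and the medians of small leucine-rich proteoglycans and complement genes are the lowest, at -0.41 each.

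Genes that ERK signalling is known to induce were mostly higher with bFGF in the absence of TAK1. Of 32 listed ERK feedback and ETS-target genes, 24 (75%) rose and 2 (6.25%) fell, and the list's median log2 fold change was 0.97. The ERK list held 25, 26, 23 and 22 raised and 2, 2, 3 and 2 lowered members when replicates 1, 2, 3 and 4 were left out in turn. Without the pairing, 12 rose and 0 fell. *Dusp6* (ENSMUSG00000019960, chromosome 10, 99263231 to 99267489, plus strand), a phosphatase that inactivates ERK in the cytoplasm, was at 11.4, 38.6, 12.3 and 17.9 CPM without ligand and at 55.6, 93.4, 103 and 108 CPM with bFGF (4.87-fold, log2 fold change 2.28, SE 0.20, adjusted p = 5.13e-07). The groups did not overlap, but replicate 2 had the highest level without ligand, as it also did in LacZ cells (4.46, 16, 4.54 and 5.59 CPM without ligand). *Spry4*, an inhibitor of receptor tyrosine kinase signalling, went from 14.6, 36.0, 15.4 and 21.9 to 90.0, 110.2, 179.9 and 122 CPM (log2 fold change 2.55, SE 0.20, adjusted p = 2.28e-07). Its relatives rose too, *Spry2* from 79.3, 150.2, 135 and 117 to 177, 315, 234 and 176 CPM (log2 fold change 0.89). *Spry1* went from 56.2, 89.5, 48.6 and 43.1 to 106, 166, 91.4 and 58.7 CPM (log2 fold change 0.78). *Spred1*, another inhibitor of the RAS pathway, rose by a log2 fold change of 1.06 (SE 0.15).

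The 3 ETS factors of the PEA3 group, which FGF signalling induces in many tissues, rose together. *Etv4* (ENSMUSG00000017724, chromosome 11, 101769742 to 101785371, minus strand) was at 4.86, 16.8, 6.07 and 9.56 CPM without ligand and at 29.3, 24.5, 36.6 and 43.0 CPM with bFGF (log2 fold change 1.94, SE 0.25, adjusted p = 3.51e-05). *Etv5* (ENSMUSG00000013089, chromosome 16, 22381309 to 22439719, minus strand) was at 32.3, 104, 44.9 and 60.0 CPM without ligand and at 120.4, 135, 148 and 141 CPM with bFGF (log2 fold change 1.29, SE 0.17, adjusted p = 5.32e-05). *Etv1* was at 25.6, 47.3, 28.9 and 34.6 CPM without ligand and at 98.4, 84.3, 128 and 104 CPM with bFGF (log2 fold change 1.62, SE 0.15, adjusted p = 1.53e-06). In all 3 the lowest library with bFGF lay above the highest one without, and pair 2 changed least. *Dusp4*, a phosphatase of the nucleus, rose from 41.5, 40.0, 39.7 and 50.0 to 130.0, 40.6, 155 and 133 CPM (log2 fold change 1.27, SE 0.21, adjusted p = 0.000423), with hardly any difference in pair 2. *Dusp5* was at 6.52, 18.9, 8.25 and 10.5 CPM without ligand and at 8.80, 12.6, 19.0 and 23.0 CPM with bFGF and did not pass the test (log2 fold change 0.53, SE 0.22, adjusted p = 0.122), but it passed without replicate 2.

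Growth genes and ligands of the list rose as well. *Ccnd1*, the D-type cyclin that starts the cell cycle, was at 212, 227, 277 and 338 CPM without ligand and at 1277, 430.2, 1208 and 1298 CPM with bFGF (log2 fold change 1.89, SE 0.18, adjusted p = 1.44e-06). *Myc* rose from 12.1, 23.3, 13.6 and 19.2 to 26.0, 27.2, 31.4 and 48.7 CPM (log2 fold change 0.95, SE 0.14, adjusted p = 0.000199). The EGF receptor ligand *Hbegf* rose from 8.81, 19.1, 9.46 and 12.4 to 42.4, 23.0, 85.4 and 80.4 CPM (log2 fold change 2.11, SE 0.31, adjusted p = 0.000159). *Ereg*, another such ligand, went from 21.6, 43.0, 20.6 and 36.0 to 65.9, 34.2, 104 and 123 CPM (log2 fold change 1.36, SE 0.28, adjusted p = 0.00261), a call that was lost without replicate 4. *Lif*, a cytokine of the IL-6 family, and *Plaur*, the urokinase receptor, had log2 fold changes of 1.69 (SE 0.21) and 1.84 (SE 0.20). The lowered members were *Ets2* and *Il17rd*. *Ets2*, an ETS factor, was at 54.2, 86.0, 52.5 and 54.3 CPM without ligand and 24.2, 53.4, 26.9 and 29.6 CPM with bFGF (log2 fold change -0.93, SE 0.09, adjusted p = 1.26e-06). *Il17rd*, a membrane inhibitor of FGF signalling also called Sef, was at 28.9, 39.0, 23.3 and 21.6 CPM without ligand and 20.8, 26.8, 14.9 and 11.5 CPM with bFGF (log2 fold change -0.65, SE 0.10, adjusted p = 0.000141). *Egr1*, an immediate-early gene, was at 192, 290.2, 142 and 186 CPM without ligand and 123, 781, 394 and 264 CPM with bFGF, which overlapped (adjusted p = 0.0539), and it passed without replicate 1.

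**Figure D2:**
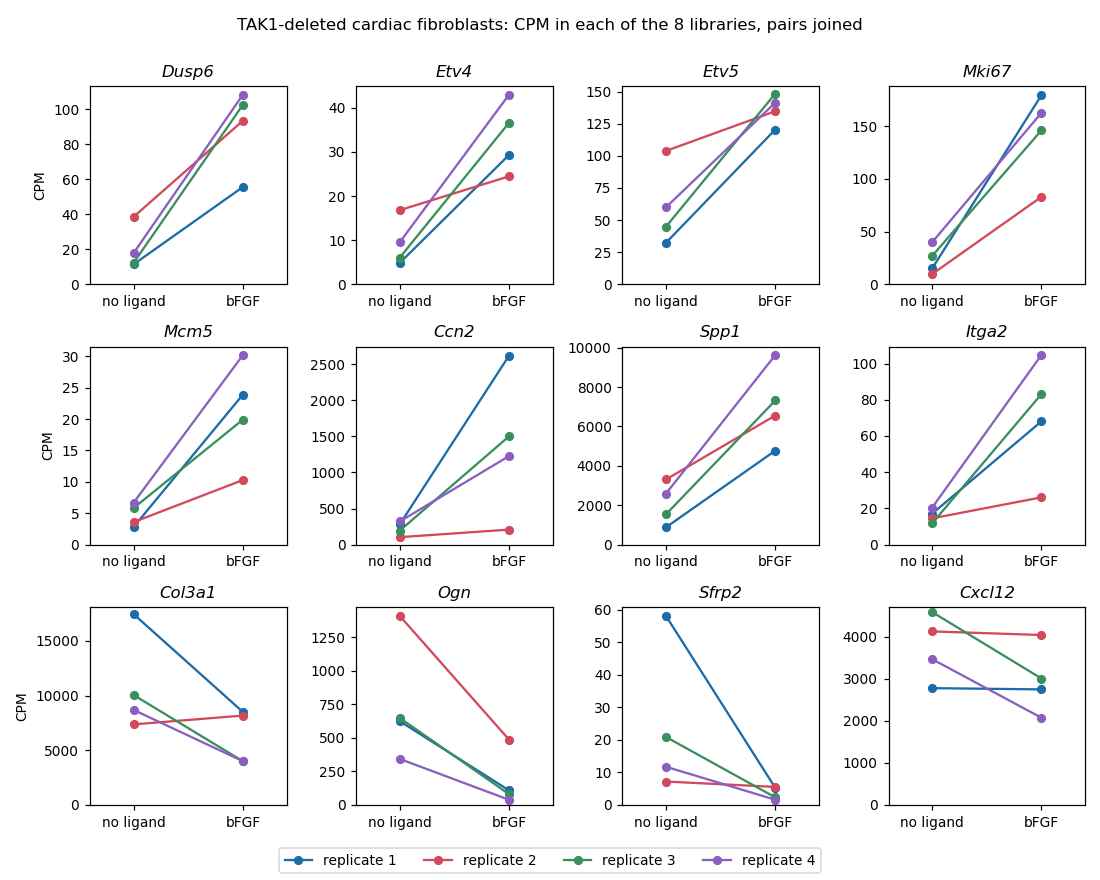
CPM (y axis, linear, from 0) of 12 genes in the 8 libraries of TAK1-deleted fibroblasts without ligand and with bFGF (x axis), with lines joining libraries of the same replicate number. Replicate 2 changes least in *Etv4*, *Etv5*, *Ccn2* and *Itga2*, and its *Col3a1* level was 7372 CPM without ligand and 8177 CPM with bFGF while the other 3 fell.

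Most genes of the ERK list changed less with bFGF in TAK1-deleted than in LacZ cells, but whether a single gene passed the test of that difference depended on the filter, the tool and replicate 2. With all 4 pairs, the interaction of ligand and virus passed the adjusted threshold for 0 of 25210 genes in edgeR (lowest adjusted p = 0.198), 1325 genes (5.26%) had an unadjusted p under 0.05, and with no filter on low counts edgeR called 7 genes, 4 lower and 3 higher in TAK1-deleted cells, among them *Etv5* (adjusted p = 0.0150) and *Etv4* (adjusted p = 0.0305) of the ERK list. DESeq2 with the same block called 60 genes, 19 lower and 41 higher in TAK1-deleted cells, of which 1 (*Etv5*) was on the ERK list. Of the 32 ERK-list genes, 29 had a smaller log2 fold change in TAK1-deleted than in LacZ cells, with a median difference of -0.42. Of the 13214 genes of at least 1 CPM, 48.4% had a difference below 0, and their median was 0.01. A smaller change was not particular to the ERK list. The difference was negative in 1544 of the 2340 genes raised in TAK1-deleted cells and positive in 1284 of the 1867 lowered ones. In LacZ cells 28 ERK-list members rose and 2 fell, with a median log2 fold change of 1.46. *Etv4* changed by 1.94 (SE 0.25) in deleted cells and by 3.78 (SE 0.20) in LacZ cells (difference -1.83, SE 0.38, unadjusted p = 0.000155, adjusted p = 0.397). *Etv5* changed by 1.29 and 2.79 (difference -1.52, SE 0.30, adjusted p = 0.380), and in DESeq2 its adjusted p was 0.00277. *Dusp6* changed by 2.28 and 3.48 (difference -1.13, adjusted p = 0.744), and *Spry4* by 2.55 and 3.86 (difference -1.26, adjusted p = 0.569).

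Without replicate 2, 66 genes passed the interaction test, 45 with a lower and 21 with a higher value in TAK1-deleted cells, and 8 of them were on the ERK list (*Dusp4*, *Dusp5*, *Dusp6*, *Spry4*, *Spred2*, *Etv4*, *Etv5* and *Phlda1*). *Phlda1* went from a difference of -0.43 with all 4 pairs to -0.64 (adjusted p = 0.0423), *Dusp5* from -0.93 to -1.12 (adjusted p = 0.0276), *Dusp4* from -1.42 to -1.61 (adjusted p = 3.66e-06) and *Spred2* from -0.62 to -0.72 (adjusted p = 0.00292). *Etv4* had -1.73 (adjusted p = 8.83e-06), *Etv5* -1.51 (adjusted p = 0.000130), *Dusp6* -1.16 (adjusted p = 0.00550) and *Spry4* -1.29 (adjusted p = 0.00702). Over the whole list 26 of 32 differences were then negative, with a median of -0.36. With replicates 1, 3 and 4 left out in turn, 0, 1 and 0 genes passed.

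The levels in both media were as follows. Without ligand, *Etv4* lay at 4.86, 16.8, 6.07 and 9.56 CPM in TAK1-deleted cells and at 1.63, 4.80, 2.10 and 2.45 CPM in LacZ cells, and with bFGF at 29.3, 24.5, 36.6 and 43.0 CPM in deleted and 32.1, 32.9, 35.7 and 43.4 CPM in LacZ cells. *Dusp6* without ligand was at 11.4, 38.6, 12.3 and 17.9 CPM in deleted and at 4.46, 16, 4.54 and 5.59 CPM in LacZ cells, and with bFGF at 55.6, 93.4, 103 and 108 CPM in deleted and 47.5, 97.4, 80.2 and 81.9 CPM in LacZ cells. *Etv5* without ligand was at 32.3, 104, 44.9 and 60.0 CPM in deleted and 14.6, 36.0, 17.3 and 18.7 CPM in LacZ cells, and with bFGF at 120.4, 135, 148 and 141 CPM in deleted and 135, 133, 172 and 126 CPM in LacZ cells. In all 3 genes each deleted culture without ligand lay above the LacZ culture of the same number, although the ranges of the genotypes overlapped for *Dusp6* and *Etv5*. With bFGF the deleted culture was the higher one in 1 of 4 pairs for *Etv4*, in 3 of 4 for *Dusp6* and in 2 of 4 for *Etv5*, and the ranges overlapped for all 3. In a comparison of the genotypes within each medium, added after these values were seen, 29 of the 32 genes were higher in TAK1-deleted than in LacZ cells without ligand and 0 were lower, with a median log2 difference of 0.75, against 6.79% of all genes higher and 7.7% lower. With bFGF, 13 were higher and 1 was lower, with a median of 0.22, against 6.64% and 7.22% of all genes. For *Etv4* the genotype difference was 1.72 (adjusted p = 4.19e-07) without ligand and -0.13 (adjusted p = 0.443) with bFGF, and for *Dusp6* 1.42 (adjusted p = 1.23e-07) and 0.23 (adjusted p = 0.0659). *Egr1* was higher in deleted cells in both media, by 1.33 (adjusted p = 7.9e-06) without ligand and 1.78 (adjusted p = 8.84e-08) with bFGF. The genotype and bFGF comparisons share libraries, so these are one set of levels seen from 2 sides, and without the pairing 1 and 0 members were higher in the 2 media.

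**Figure D3:**
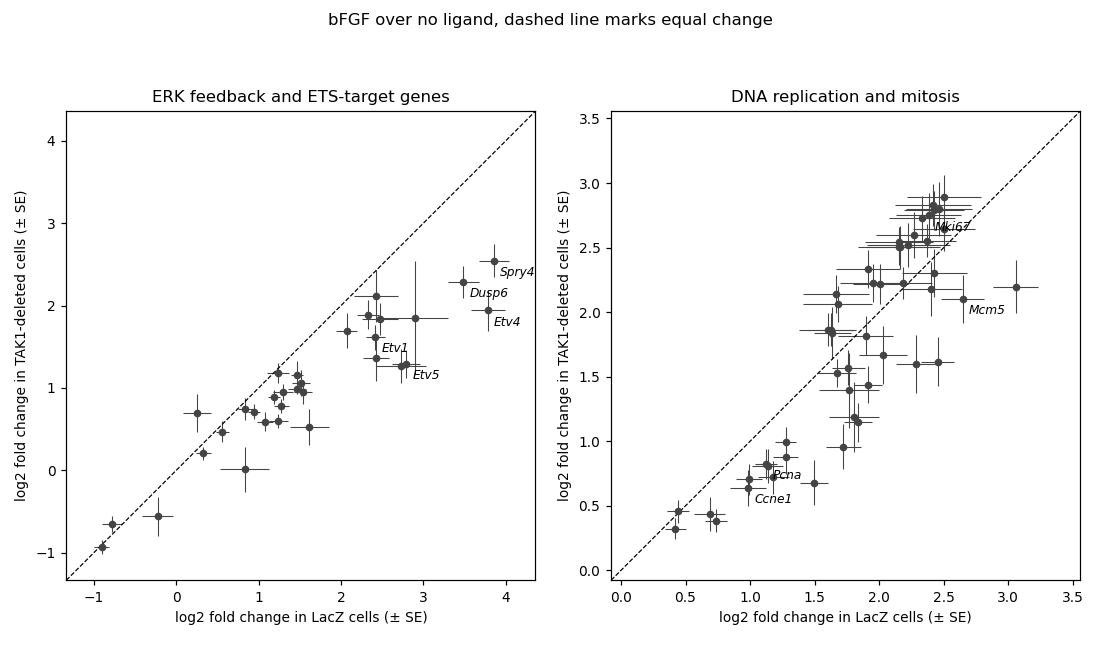
Log2 fold change with bFGF in LacZ (x axis) and in TAK1-deleted fibroblasts (y axis), each ± SE, for the ERK list (left) and for DNA replication and mitosis (right). The dashed line marks equal change, and 29 of 32 ERK-list genes have a negative interaction against 26 of 49 genes of the cell cycle.

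Cell division genes rose as a block. All 49 listed genes of DNA replication and mitosis passed the test in the raised direction, against 16.6% of genes of at least 1 CPM, with a median log2 fold change of 1.86 and a range from 0.32 to 2.90. The cell cycle list held 45, 49, 48 and 42 raised and 0, 0, 0 and 0 lowered members when replicates 1, 2, 3 and 4 were left out in turn. In the unpaired fit 36 passed as raised and 0 as lowered. *Mki67* (ENSMUSG00000031004, chromosome 7, 135689784 to 135716361, minus strand), the proliferation antigen Ki-67, was at 15.0, 9.74, 27.0 and 40.0 CPM without ligand and at 179.6, 83.0, 146 and 163 CPM with bFGF (6.73-fold, log2 fold change 2.75, SE 0.17, adjusted p = 3.11e-08). *Ccna2*, the cyclin of S phase and G2, rose from 4.26, 2.40, 8.36 and 12.8 to 55.8, 22.6, 48.8 and 65.0 CPM (log2 fold change 2.90, SE 0.17, adjusted p = 1.32e-08). *Ccnb1*, the mitotic cyclin, went from 3.80, 3.52, 5.77 and 8.61 to 34.5, 18.6, 29.4 and 39.9 CPM (log2 fold change 2.51, SE 0.14, adjusted p = 1.3e-08). *Top2a*, the topoisomerase that untangles sister chromatids, rose from 16.6, 20.9, 30.6 and 39.5 to 125, 85.7, 120.2 and 165 CPM (log2 fold change 2.22, SE 0.12, adjusted p = 1.3e-08). The mitotic kinases *Plk1*, *Aurkb* and *Cdk1* had log2 fold changes of 2.83 (SE 0.16), 2.79 (SE 0.15) and 1.53 (SE 0.11). In each of these 7 genes the groups did not overlap and replicate 2 had the lowest level with bFGF.

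Genes of S-phase entry and DNA replication rose too, some of them only slightly. The helicase subunits *Mcm5* (2.82, 3.59, 5.83 and 6.69 CPM without ligand, 23.9, 10.3, 19.9 and 30.2 CPM with bFGF) and *Mcm2* (10.3, 13.3, 12.2 and 14.7 CPM without ligand and 31.0, 17.8, 28.2 and 39.8 CPM with bFGF) had log2 fold changes of 2.10 (SE 0.18) and 1.15 (SE 0.15). *Pcna*, the sliding clamp of the replication fork, was at 24.8, 23.3, 23.0 and 27.5 CPM without ligand and 49.8, 28.1, 48.4 and 54.6 CPM with bFGF (log2 fold change 0.82, SE 0.12, adjusted p = 0.000116). *Ccne2* and *Ccne1*, the cyclins that start S phase, had log2 fold changes of 2.20 (SE 0.21) and 0.64 (SE 0.14). The smallest change of the list was that of *E2f1*, the transcription factor of S-phase entry, at 32.7, 30.0, 32.2 and 33.9 CPM without ligand and 41.9, 38.0, 40.0 and 42.8 CPM with bFGF (log2 fold change 0.32, SE 0.08, adjusted p = 0.00863). Calls of *E2f1*, *Prim1* (log2 fold change 0.44) and *Rrm1* were lost without replicate 1 or without replicate 4, that of *Ccne1* was lost without replicate 4, and *Rrm1* went from 0.39 to 0.25 without replicate 1. In LacZ cells all 49 members also rose, with a median of 1.91, and the median difference between the genotypes was -0.08, with 26 of 49 members below 0. Without replicate 2 that median was 0.20, with 21 of 49 below 0, and without replicates 1, 3 and 4 it was -0.07, -0.14 and -0.15. For *Mki67* the difference was 0.41 (95% interval -0.37 to 1.19) and for *Mcm2* -0.67 (95% interval -1.07 to -0.27, adjusted p = 0.854).

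Promoters of this group are shown because its members moved together, and the letters searched are those named for cell cycle promoters: CCAAT (bound by NF-Y), TTTGAA (the CHR element) and the E2F letters TTTGGCGC, TTTCCCGC and TTTCGCGC, each on both strands. Windows are the 250 bases before the start site given by RefSeq on GRCm38.p6, 5′ to 3′ on the strand of the gene, with matches in capitals.
Ccnb1 (chr13:100786487-100786736, minus strand): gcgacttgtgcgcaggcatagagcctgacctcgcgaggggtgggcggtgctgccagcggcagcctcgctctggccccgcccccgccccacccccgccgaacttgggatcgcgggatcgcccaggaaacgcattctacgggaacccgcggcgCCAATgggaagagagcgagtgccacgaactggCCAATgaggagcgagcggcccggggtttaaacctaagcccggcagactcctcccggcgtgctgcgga
Cdc20 (chr4:118437344-118437593, minus strand): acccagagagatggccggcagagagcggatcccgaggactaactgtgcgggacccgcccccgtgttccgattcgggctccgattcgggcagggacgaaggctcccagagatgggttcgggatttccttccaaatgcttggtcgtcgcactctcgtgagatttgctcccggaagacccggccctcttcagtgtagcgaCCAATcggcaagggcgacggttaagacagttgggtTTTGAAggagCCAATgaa
Cdk1 (chr10:69352913-69353162, minus strand): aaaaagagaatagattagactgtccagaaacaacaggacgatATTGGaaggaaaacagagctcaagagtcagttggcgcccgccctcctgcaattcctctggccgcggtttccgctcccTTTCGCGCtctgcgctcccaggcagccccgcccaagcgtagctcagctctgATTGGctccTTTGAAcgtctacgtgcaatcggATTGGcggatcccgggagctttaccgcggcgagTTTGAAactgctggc
Mcm5 (chr8:75109259-75109508, plus strand): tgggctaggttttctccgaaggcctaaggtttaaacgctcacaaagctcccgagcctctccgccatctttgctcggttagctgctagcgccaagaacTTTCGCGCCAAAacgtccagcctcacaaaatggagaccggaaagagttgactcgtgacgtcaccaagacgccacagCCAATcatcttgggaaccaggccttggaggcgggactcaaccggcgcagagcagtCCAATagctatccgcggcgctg
*Ccnb1* held 2 matches to CCAAT, *Cdc20* 2 to CCAAT and 1 to TTTGAA, *Cdk1* 3 to CCAAT (as ATTGG), 2 to TTTGAA and 1 to the E2F letters, and *Mcm5* 2 to CCAAT and 2 overlapping matches to the E2F letters on opposite strands. Of the 49 genes 38 had a promoter in the table, of which 29 (76.3%) held CCAAT, 8 (21.1%) TTTGAA and 6 (15.8%) the E2F letters, against 34.5%, 16.3% and 1.59% of 27025 promoters. CCAAT was in a higher share of the cholesterol list (15 of 17 promoters, 88.2%), and TTTGAA of the proteoglycans (4 of 10, 40%), chemokines (6 of 22, 27.3%), interferon-stimulated genes (6 of 26, 23.1%) and several lists of cell type markers. *Cdc20*, the activator of the anaphase-promoting complex, was at 6.52, 5.2, 11.5 and 15.5 CPM without ligand and at 53.1, 24.6, 44.3 and 54.7 CPM with bFGF (log2 fold change 2.23, SE 0.15, adjusted p = 5.1e-08). The letters and sets were chosen after the values were seen, and a match describes the sequence only.

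Metabolic genes that growing cells use were raised to a smaller extent. Glycolysis and hypoxia-response genes rose in 17 (58.6%) of 29 cases and fell in 3 (10.3%), with a median of 0.40. The glycolysis list held 13, 18, 13 and 10 raised and 3, 5, 1 and 1 lowered members when replicates 1, 2, 3 and 4 were left out in turn. Dropping the pairing left 2 raised and 0 lowered, and the fit on all 40 libraries called 13 raised and 1 lowered. *Pkm*, pyruvate kinase, was at 557, 609, 749.6 and 811 CPM without ligand and at 1179, 953, 1291 and 1517 CPM with bFGF (log2 fold change 0.84, SE 0.08, adjusted p = 1.55e-06), and the groups did not overlap. *Ldha*, lactate dehydrogenase, rose from 306, 336, 346 and 381 to 659.5, 374, 623 and 758 CPM (log2 fold change 0.77, SE 0.12, adjusted p = 0.000236). *Hk2*, hexokinase 2, went from 11.5, 12.8, 9.74 and 15.5 to 25.1, 15.4, 27.5 and 46.4 CPM (log2 fold change 1.11, SE 0.17, adjusted p = 0.000170). *Ndrg1*, a stress- and hypoxia-responsive gene, fell from 164, 89.9, 139.9 and 96.0 to 79.5, 68.9, 54.4 and 41.5 CPM (log2 fold change -1.01, SE 0.12, adjusted p = 1.13e-05). Members of the list had a smaller log2 fold change in TAK1-deleted than in LacZ cells in 23 of 29 cases, with a median difference of -0.31, of which 14 had an unadjusted and 0 an adjusted p at the threshold. Without replicate 2 the median difference was -0.18, with 25 of 29 below 0, and without replicates 1, 3 and 4 it was -0.34, -0.32 and -0.35. Among all genes raised in TAK1-deleted cells, 1544 of 2340 also had a negative difference with all 4 pairs.

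Cholesterol synthesis and uptake genes rose in 13 (52%) of 25 cases and fell in 0 (0%), with a median of 0.33. The cholesterol list held 4, 12, 13 and 12 raised and 0, 0, 0 and 0 lowered members when replicates 1, 2, 3 and 4 were left out in turn. The unpaired counts were 0 and 0, and with all 40 libraries in the fit 2 raised and 0 lowered were called. The list moved most in pairs 1 and 2, whose medians were 0.55 and 0.81, and least in pairs 3 and 4, at 0.08 and 0.04. Fatty acid synthesis genes rose in 6 (40%) of 15 cases and fell in 0 (0%), and *Scd2*, a fatty acid desaturase, had a log2 fold change of 0.47 (SE 0.07). The fatty acid list held 2, 6, 4 and 3 raised and 0, 1, 0 and 0 lowered members when replicates 1, 2, 3 and 4 were left out in turn. Unpaired, 1 and 0 members passed, and 2 raised and 0 lowered passed in the fit on all 40 libraries. Targets of ATF4 and enzymes of serine, glycine and proline synthesis rose in 10 (40%) of 25 cases and fell in 2 (8%), among them the mitochondrial folate enzymes *Mthfd2* (log2 fold change 1.06, SE 0.14) and *Shmt2* (log2 fold change 0.69, SE 0.10). The ATF4 list held 6, 16, 8 and 4 raised and 2, 3, 2 and 2 lowered members when replicates 1, 2, 3 and 4 were left out in turn. A fit with no pairing called 0 raised and 0 lowered, and the fit on all 40 libraries called 4 raised and 1 lowered.

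**Figure D4:**
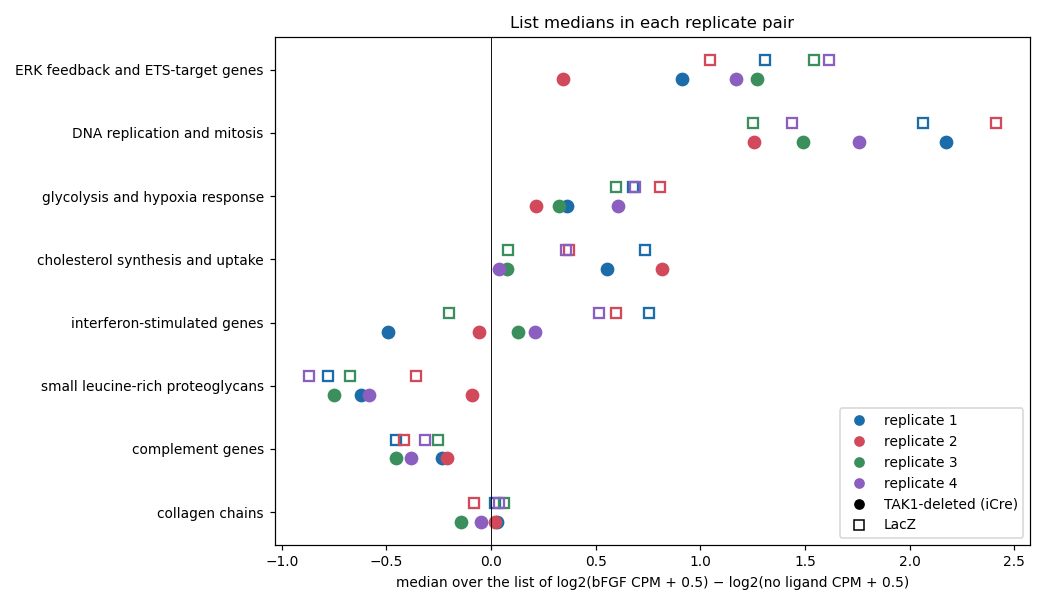
Median log2 change over 8 gene lists (rows) in each replicate pair (x axis, log2 of CPM + 0.5), for TAK1-deleted (filled circles) and LacZ fibroblasts (open squares). In TAK1-deleted cells pair 2 has the lowest median for the ERK list (0.34) and the highest for cholesterol genes (0.81), and the interferon-stimulated genes straddle 0.

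Of 30 genes of the FGF system itself 7 (23.3%) rose and 7 (23.3%) fell, with a median of -0.04, against 16.6% and 13.2% of genes of at least 1 CPM. The FGF list held 5, 7, 6 and 5 raised and 7, 7, 6 and 6 lowered members when replicates 1, 2, 3 and 4 were left out in turn. Without the pairing, 1 rose and 0 fell, and with all 40 libraries in the fit 3 raised and 5 lowered were called. Among ligands, *Fgf1* rose from 4.40, 12.6, 9.83 and 7.78 to 34.6, 19.5, 50.9 and 29.3 CPM (log2 fold change 1.94, SE 0.25, adjusted p = 3.49e-05) and the gene for bFGF itself, *Fgf2*, from 125, 223, 147 and 161 to 203, 226, 281 and 277 CPM (log2 fold change 0.60, SE 0.12, adjusted p = 0.00164). *Fgf18* fell from 6.91, 2.70, 8.38 and 5.93 to 3.53, 1.58, 3.77 and 2.46 CPM (log2 fold change -1.06, SE 0.16, adjusted p = 0.000153). Among receptors, *Fgfr1* was at 636, 651, 563 and 569.7 CPM without ligand and at 626, 608, 651 and 576 CPM with bFGF (log2 fold change 0.01, SE 0.07, adjusted p = 0.968). *Fgfr2* fell from 26.8, 38.3, 31.7 and 25.7 to 20.9, 22.5, 17.9 and 12.3 CPM (log2 fold change -0.76, SE 0.11, adjusted p = 8.5e-05). *Fgfr3* went from 3.14, 0.526, 2.14 and 2.0 to 0.915, 0.253, 0.567 and 0.484 CPM (log2 fold change -1.74, SE 0.27, adjusted p = 0.000226). The heparan sulfate carriers *Gpc6* and *Sdc3* had log2 fold changes of -0.82 (SE 0.07) and 0.65 (SE 0.08).

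AP-1 family genes rose in 6 (40%) of 15 cases and fell in 4 (26.7%). The AP-1 list held 4, 6, 3 and 3 raised and 4, 4, 3 and 3 lowered members when replicates 1, 2, 3 and 4 were left out in turn. In the unpaired fit 0 passed as raised and 1 as lowered. *Fosl1*, a Fos-related protein that ERK stabilises, was at 15.3, 31.3, 16.8 and 29.3 CPM without ligand and at 38.0, 31.1, 66.7 and 82.4 CPM with bFGF (log2 fold change 1.19, SE 0.21, adjusted p = 0.000815), with no difference in pair 2. *Junb* rose from 78.7, 94.3, 82.1 and 99.7 to 109.5, 220.2, 148 and 149.8 CPM (log2 fold change 0.77, SE 0.10, adjusted p = 3.65e-05). *Jund* fell from 192, 147, 201 and 169 to 120.3, 108, 114 and 118 CPM (log2 fold change -0.63, SE 0.08, adjusted p = 2.32e-05). *Fosl1* had a log2 fold change of 2.73 in LacZ cells (difference -1.39, unadjusted p = 0.00205, adjusted p = 0.744).

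Matrix genes moved in both directions. Of 39 collagen chains 7 rose (17.9%) and 10 fell (25.6%), with a median of -0.14, and the raised share was near the 16.6% of genes of at least 1 CPM, of which 13.2% fell. Of all genes tested, 9.28% rose and 7.41% fell. The collagen list held 6, 9, 5 and 6 raised and 9, 14, 7 and 6 lowered members when replicates 1, 2, 3 and 4 were left out in turn. Dropping the pairing left 0 raised and 0 lowered, and 4 raised and 5 lowered passed in the fit on all 40 libraries. The chains of the main fibrillar collagens fell. *Col3a1* (ENSMUSG00000026043, chromosome 1, 45311538 to 45349706, plus strand) was at 17453, 7372, 10058 and 8693 CPM without ligand and at 8507, 8177, 3999 and 4004 CPM with bFGF (log2 fold change -0.85, SE 0.16, adjusted p = 0.00108), lower in 3 pairs and not in pair 2. *Col1a1* fell from 5713, 3170.4, 4692 and 3777 to 4317, 2972, 3493 and 2834 CPM (log2 fold change -0.35, SE 0.07, adjusted p = 0.00272). *Col1a2* went from 6627, 4304, 5771 and 4614 to 5461, 4086, 4478 and 3765 CPM (log2 fold change -0.27, SE 0.07, adjusted p = 0.0122), lower in all 4 pairs although the groups overlapped, and the call of *Col1a2* was lost without replicate 3 or 4. *Col8a1*, a short-chain collagen, rose from 352, 121, 233 and 281 to 1292, 180.1, 542 and 543 CPM (log2 fold change 1.14, SE 0.14, adjusted p = 2.85e-05). *Col15a1*, of basement membranes, went from 1656, 1174, 1185 and 1124 to 2754, 1437, 2443 and 1677 CPM (log2 fold change 0.65, SE 0.10, adjusted p = 0.000192). *Col2a1*, the cartilage collagen, rose from 42.7, 11.5, 36.8 and 93.0 to 367, 20.3, 172 and 327 CPM (log2 fold change 2.01, SE 0.23, adjusted p = 9.71e-06), with the smallest change in pair 2.

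Matricellular and cross-linking genes were raised in 11 (31.4%) and lowered in 11 (31.4%) of 35 cases. The matricellular list held 6, 15, 8 and 7 raised and 11, 12, 9 and 10 lowered members when replicates 1, 2, 3 and 4 were left out in turn. The unpaired counts were 2 and 2, and the fit on all 40 libraries called 7 raised and 5 lowered. *Spp1* (ENSMUSG00000029304, chromosome 5, 104435118 to 104441050, plus strand), the secreted phosphoprotein osteopontin, had the largest gain in CPM, from 879.9, 3307, 1539 and 2593 to 4769, 6555, 7317 and 9621 CPM (log2 fold change 1.88, SE 0.16, adjusted p = 6e-07). *Ccn2* (ENSMUSG00000019997, chromosome 10, 24595442 to 24598683, plus strand), connective tissue growth factor, was at 283, 103, 195 and 321 CPM without ligand and at 2618, 208, 1501 and 1227 CPM with bFGF (log2 fold change 2.27, SE 0.25, adjusted p = 7e-06), and replicate 2 stayed within the range of the untreated libraries. *Ccn2* changed by 3.43 in LacZ cells (difference -1.13, unadjusted p = 0.0178, adjusted p = 0.892), and without replicate 2 the difference was -1.23 and passed (adjusted p = 0.0351). *Eln*, elastin, rose from 183, 74.0, 53.2 and 53.9 to 666, 143, 141 and 137 CPM (log2 fold change 1.38, SE 0.11, adjusted p = 2.44e-07), with replicate 1 far above the others in both groups. *Tnxb*, tenascin X, fell from 248, 84.4, 110.1 and 96.4 to 50.9, 49.1, 45.4 and 27.5 CPM (log2 fold change -1.55, SE 0.16, adjusted p = 4.41e-06). *Thbs2*, thrombospondin 2, went from 1396, 1147, 717 and 631 to 535, 975, 269 and 219 CPM (log2 fold change -1.16, SE 0.15, adjusted p = 3.83e-05). *Fbln5*, which assembles elastic fibres, went from 782, 317, 709 and 579.6 to 601, 161, 425 and 318 CPM (log2 fold change -0.75, SE 0.09, adjusted p = 1.78e-05). *Lox*, the lysyl oxidase that cross-links collagen, and *Postn*, periostin, had log2 fold changes of -0.70 (SE 0.09) and -0.42 (SE 0.08).

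Small leucine-rich proteoglycans, which bind collagen fibrils, were mostly lowered, 7 of 13 (53.8%) against 13.2% of genes of at least 1 CPM, with 1 raised and a median of -0.41. The proteoglycan list held 0, 1, 1 and 0 raised and 7, 8, 6 and 6 lowered members when replicates 1, 2, 3 and 4 were left out in turn. Unpaired, 0 and 1 members passed, and with all 40 libraries in the fit 0 raised and 5 lowered were called. *Ogn* (ENSMUSG00000021390, chromosome 13, 49608046 to 49624501, plus strand), osteoglycin, was at 624, 1408, 648 and 343 CPM without ligand and at 108, 486, 80.0 and 38.3 CPM with bFGF (5.94-fold lower, log2 fold change -2.57, SE 0.18, adjusted p = 7.27e-08), and replicate 2 was the highest in both groups. *Fmod*, fibromodulin, fell from 75.3, 11.8, 47.4 and 36.0 to 25.7, 3.21, 10.7 and 7.81 CPM (log2 fold change -1.95, SE 0.11, adjusted p = 1.31e-08). *Omd*, osteomodulin, went from 9.76, 10.4, 5.21 and 4.19 to 3.47, 7.01, 2.03 and 1.19 CPM (log2 fold change -1.26, SE 0.18, adjusted p = 0.000128). *Aspn*, asporin, went from 104, 224, 106 and 70.6 to 45.0, 126, 46.8 and 35.2 CPM (log2 fold change -1.07, SE 0.08, adjusted p = 1.1e-07). All fell in each of the 4 pairs. *Dcn*, decorin, was at 2226, 934, 1366 and 1488 CPM without ligand and at 1448, 1121, 812 and 1066 CPM with bFGF (log2 fold change -0.41, SE 0.12, adjusted p = 0.0216), a call that was lost without replicate 1, 3 or 4 and whose log2 fold change was -0.63 without replicate 2. *Lum*, lumican, did not pass (log2 fold change -0.18, SE 0.17, adjusted p = 0.595) except without replicate 2, and the single raised member was *Bgn*, biglycan, from 6698, 3978, 6716 and 6379 to 8829.6, 4836, 7411 and 7261 CPM (log2 fold change 0.24, SE 0.07, adjusted p = 0.0220), whose call was lost without replicate 1 or 4.

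Metalloproteinases and their inhibitors were raised in 8 (34.8%) and lowered in 6 (26.1%) of 23 cases. The metalloproteinase list held 6, 8, 7 and 5 raised and 5, 8, 3 and 4 lowered members when replicates 1, 2, 3 and 4 were left out in turn. A fit with no pairing called 2 raised and 0 lowered, and 4 raised and 4 lowered passed in the fit on all 40 libraries. *Mmp1a*, an interstitial collagenase that the annotation lists as a polymorphic pseudogene and that has a near-identical copy in *Mmp1b*, had the largest rise of all genes named by the rule, from 0.0705, 0, 0.0648 and 0.151 to 0.883, 0.402, 1.5 and 9.23 CPM (log2 fold change 5.07, SE 0.42, adjusted p = 3.5e-07). Its level without ligand rests on 2, 0, 3 and 4 reads, and reads that fit both copies could be assigned to neither or to either. *Mmp1b* was at 0.0352, 0.0329, 0 and 0.189 CPM without ligand and 0.789, 0.268, 0.667 and 1.38 CPM with bFGF (log2 fold change 3.75, SE 0.59, adjusted p = 0.000282). *Mmp10*, stromelysin 2, rose from 0.282, 0.856, 0.626 and 0.567 to 1.64, 1.44, 1.93 and 1.75 CPM (log2 fold change 1.54, SE 0.30, adjusted p = 0.00155). *Mmp9*, gelatinase B, went from 5.25, 7.01, 4.49 and 15.5 to 15.6, 7.74, 7.83 and 31.9 CPM (log2 fold change 0.87, SE 0.17, adjusted p = 0.00167). *Mmp2*, gelatinase A, fell from 2576, 2001, 1988 and 1852 to 1448, 1634, 1333 and 1128 CPM (log2 fold change -0.62, SE 0.08, adjusted p = 5.64e-05), and the groups did not overlap. *Mmp3*, stromelysin 1 (log2 fold change 0.26), and the inhibitor *Timp1* (392, 269, 396 and 529 CPM without ligand, 871, 233, 880.4 and 1095 CPM with bFGF, log2 fold change 0.78, SE 0.17, adjusted p = 0.00310) lost their calls without replicate 4, and *Mmp3* also without replicate 1.

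The promoter window of *Mmp1a* is shown for its single match to the AP-1 letters TGACTCA, here as TGAGTCA on the strand of the gene, from the same table and build.
Mmp1a (chr9:7463891-7464140, plus strand): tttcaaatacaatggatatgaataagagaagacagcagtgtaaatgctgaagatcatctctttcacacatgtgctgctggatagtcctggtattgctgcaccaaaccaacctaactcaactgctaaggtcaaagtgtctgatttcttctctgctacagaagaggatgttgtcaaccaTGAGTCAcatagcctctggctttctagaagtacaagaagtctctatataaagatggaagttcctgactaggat
These letters were searched on both strands and occurred in 5 of 18 metalloproteinase and TIMP promoters (27.8%), in 4 of 9 plasminogen system promoters (44.4%) and in 4.43% of all 27025. The next highest shares among the lists were 6 of 25 promoters of cytokines and inflammatory enzymes (24%) and 5 of 26 of interferon-stimulated genes (19.2%), and 0 of 15 integrin promoters held them. They were searched after the values had been seen. The ETS letters CCGGAAGT occurred in 0 of 21 promoters of the ERK list, against 2.93% of all 27025. Their highest share among the lists was 2 of 24 promoters of the FGF list (8.33%).

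Of 14 plasminogen system genes 7 (50%) rose and 1 (7.14%) fell, with a median of 0.30. The plasminogen list held 3, 9, 3 and 2 raised and 1, 2, 1 and 1 lowered members when replicates 1, 2, 3 and 4 were left out in turn. Without the pairing, 1 rose and 0 fell, and the fit on all 40 libraries called 4 raised and 1 lowered. *Plaur* was at 8.07, 9.61, 11.6 and 15.6 CPM without ligand and at 36.7, 15.4, 54.3 and 73.7 CPM with bFGF (log2 fold change 1.84, SE 0.20, adjusted p = 5.36e-06). *F3*, tissue factor, fell from 30.2, 57.5, 22.2 and 20.8 to 11.9, 40.0, 8.30 and 7.67 CPM (log2 fold change -1.17, SE 0.13, adjusted p = 8.43e-06). Integrin subunits rose in 9 (47.4%) of 19 cases and fell in 2 (10.5%), with a median of 0.35. The integrin list held 6, 8, 8 and 6 raised and 2, 2, 1 and 1 lowered members when replicates 1, 2, 3 and 4 were left out in turn. In the unpaired fit 1 passed as raised and 0 as lowered, and with all 40 libraries in the fit 7 raised and 1 lowered were called. *Itga2*, a collagen-binding chain, rose from 17.1, 14.5, 11.8 and 20.5 to 68.1, 26.1, 83.2 and 105 CPM (log2 fold change 2.01, SE 0.21, adjusted p = 4.58e-06). *Itga6*, a laminin-binding chain, went from 24.6, 13.1, 31.9 and 30.7 to 48.9, 19.1, 73.3 and 71.7 CPM (log2 fold change 0.99, SE 0.11, adjusted p = 6.82e-06). *Itgb3*, the chain of the vitronectin receptor, went from 46.7, 53.8, 51.6 and 73.7 to 114, 50.9, 136 and 169.8 CPM (log2 fold change 0.95, SE 0.17, adjusted p = 0.000961). *Itga5*, the fibronectin receptor chain, had a log2 fold change of 0.73 (SE 0.13).

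Hyaluronan genes rose in 6 (35.3%) of 17 cases and fell in 3 (17.6%). The hyaluronan list held 6, 6, 6 and 8 raised and 2, 3, 2 and 2 lowered members when replicates 1, 2, 3 and 4 were left out in turn. Dropping the pairing left 3 raised and 0 lowered. The synthases *Has1* (4.12, 5.89, 3.15 and 8.76 CPM without ligand, 10.4, 6.80, 20.3 and 36.4 CPM with bFGF, log2 fold change 1.58, SE 0.27, adjusted p = 0.000538) and *Has2* (11.4, 6.68, 12.2 and 18.2 CPM without ligand and 21.6, 12.5, 26.3 and 33.7 CPM with bFGF, log2 fold change 0.94, SE 0.10, adjusted p = 4.1e-06) rose, as did the receptor *Cd44* (95.8, 125, 107 and 125 CPM without ligand and 234, 176, 300.1 and 294 CPM with bFGF, log2 fold change 1.12, SE 0.12, adjusted p = 7.37e-06). *Cemip*, which breaks hyaluronan down, fell from 259, 1019, 275 and 129 to 108, 457, 61.9 and 21.4 CPM (log2 fold change -1.79, SE 0.17, adjusted p = 1.47e-06), with replicate 2 highest in both groups. *Has2* rose by 1.84 in LacZ cells (difference -0.88, unadjusted p = 0.00330, adjusted p = 0.829).

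Smooth muscle contractile genes, the mark of myofibroblasts, fell in 9 (45%) of 20 cases and rose in 3 (15%), with a median of -0.29. The contractile list held 1, 4, 1 and 1 raised and 8, 10, 3 and 3 lowered members when replicates 1, 2, 3 and 4 were left out in turn. The unpaired counts were 0 and 0, and 3 raised and 2 lowered passed in the fit on all 40 libraries. *Myl9*, a myosin light chain, was at 37.1, 35.9, 56.8 and 32.8 CPM without ligand and at 32.2, 21, 26.7 and 16.8 CPM with bFGF (log2 fold change -0.77, SE 0.12, adjusted p = 0.000202), with no overlap. *Acta2*, smooth muscle α-actin, was at 117, 103, 180.0 and 108 CPM without ligand and 163, 50.5, 90.1 and 63.3 CPM with bFGF (log2 fold change -0.60, SE 0.17, adjusted p = 0.0241), higher in pair 1 and lower in the other 3, and without replicate 1 its log2 fold change was -0.97. *Tagln*, transgelin, was at 68.0, 74.7, 90.3 and 61.1 CPM without ligand and 77.1, 37.7, 49.6 and 36.0 CPM with bFGF (log2 fold change -0.62, SE 0.14, adjusted p = 0.00467). *Cnn1*, calponin, was at 1.23, 2.27, 2.20 and 1.55 CPM without ligand and 0.947, 1.21, 0.667 and 0.893 CPM with bFGF (log2 fold change -0.97, SE 0.26, adjusted p = 0.0151). Calls of *Acta2*, *Tagln* and *Cnn1* were lost without replicate 3 and without replicate 4. *Actn1*, the non-muscle α-actinin, rose from 341, 346, 361 and 392 to 746, 412, 638 and 614 CPM (log2 fold change 0.70, SE 0.11, adjusted p = 0.000213).

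TGFβ pathway genes rose in 14 (51.9%) of 27 cases and fell in 0 (0%), with a median of 0.34. The TGFβ list held 9, 15, 9 and 9 raised and 0, 2, 0 and 0 lowered members when replicates 1, 2, 3 and 4 were left out in turn. Unpaired, 1 and 0 members passed. *Inhba*, which encodes the subunit of activin A, was at 88.0, 106, 90.9 and 108 CPM without ligand and at 405, 182, 566 and 523 CPM with bFGF (3.93-fold, log2 fold change 1.97, SE 0.20, adjusted p = 4.07e-06), and the groups did not overlap. *Skil*, a SMAD corepressor that TGFβ induces, rose from 50.4, 54.4, 44.4 and 59.9 to 79.9, 63.6, 80.9 and 103 CPM (log2 fold change 0.62, SE 0.10, adjusted p = 0.000275). *Tgfb1* had a log2 fold change of 0.51 (adjusted p = 0.00656), a call that was lost without replicate 3 or 4, while *Tgfb2* (-0.11, adjusted p = 0.570) and *Tgfb3* (-0.10, adjusted p = 0.470) did not pass. BMP pathway genes rose in 6 and fell in 6 of 30 cases (20% each), not far from the 16.6% and 13.2% of genes of at least 1 CPM. Both shares lay above the 9.28% and 7.41% of all genes tested. The BMP list held 4, 6, 4 and 5 raised and 5, 7, 3 and 3 lowered members when replicates 1, 2, 3 and 4 were left out in turn. A fit with no pairing called 0 raised and 1 lowered. Among BMP antagonists, *Chrdl1* fell from 7.79, 2.24, 4.77 and 3.85 to 0.473, 0.714, 0.433 and 0.260 CPM (log2 fold change -3.12, SE 0.32, adjusted p = 4.06e-06). *Grem1* rose from 132, 430.3, 200.02 and 226 to 362, 589, 509 and 584 CPM (log2 fold change 1.14, SE 0.13, adjusted p = 9.41e-06), and the ligand *Bmp3* fell from 12.2, 21.2, 6.03 and 4.31 to 3.28, 6.43, 0.600 and 0.484 CPM (log2 fold change -2.31, SE 0.22, adjusted p = 1.56e-06).

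WNT genes were lowered in 15 (39.5%) and raised in 8 (21.1%) of 38 cases, with a median of -0.33. The WNT list held 6, 10, 6 and 5 raised and 12, 18, 11 and 11 lowered members when replicates 1, 2, 3 and 4 were left out in turn. Without the pairing, 1 rose and 1 fell. The antagonists did not move together, since *Sfrp2* fell from 58.1, 7.21, 20.9 and 11.7 to 5.27, 5.55, 2.33 and 1.60 CPM (log2 fold change -2.46, SE 0.35, adjusted p = 0.000106), *Frzb* rose from 122, 126, 129.9 and 180.4 to 421, 241, 358 and 443 CPM (log2 fold change 1.36, SE 0.11, adjusted p = 2.04e-07). *Dkk2* rose from 18.9, 54.3, 23.1 and 16 to 70.7, 105, 63.7 and 49.1 CPM (log2 fold change 1.46, SE 0.12, adjusted p = 3.22e-07). *Dkk1* was near the detection limit without ligand, with 1, 0, 1 and 2 reads, and at 1.29, 0.0298, 1.43 and 1.34 CPM with bFGF (adjusted p = 1.06e-05), where replicate 2 had not left the untreated range. The ligand *Wnt5b* fell from 17.3, 13.9, 14.5 and 10.8 to 4.48, 8.14, 3.93 and 2.31 CPM (log2 fold change -1.68, SE 0.18, adjusted p = 7.78e-06) and the receptor *Fzd1* from 431, 496, 399 and 397 to 256, 355, 187 and 177 CPM (log2 fold change -0.89, SE 0.09, adjusted p = 5.84e-06), both without overlap. IGF system genes fell in 7 (41.2%) of 17 cases and rose in 1 (5.88%), with a median of -0.31. The IGF list held 1, 1, 1 and 1 raised and 5, 8, 3 and 4 lowered members when replicates 1, 2, 3 and 4 were left out in turn. In the unpaired fit 0 passed as raised and 0 as lowered, and the fit on all 40 libraries called 1 raised and 1 lowered. *Igf1* (56.9, 19.6, 24.4 and 30.1 CPM without ligand, 42.1, 12, 17.0 and 24.2 CPM with bFGF, log2 fold change -0.51, SE 0.09, adjusted p = 0.000931) and the binding protein *Igfbp6* (34.3, 129, 31.7 and 35.7 CPM without ligand and 18.6, 83.5, 14.2 and 17.9 CPM with bFGF, log2 fold change -0.92, SE 0.09, adjusted p = 2.06e-06) fell in all 4 pairs.

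Factors of the PDGF, VEGF, HGF and EGF type rose in 10 (30.3%) and fell in 8 (24.2%) of 33 cases, against 16.6% and 13.2% of genes of at least 1 CPM. The growth factor list held 8, 14, 8 and 7 raised and 8, 11, 6 and 7 lowered members when replicates 1, 2, 3 and 4 were left out in turn. Dropping the pairing left 1 raised and 2 lowered, and with all 40 libraries in the fit 8 raised and 5 lowered were called. *Angpt2* (ENSMUSG00000031465, chromosome 8, 18690263 to 18741562, minus strand), a ligand of the endothelial receptor TIE2, was at 268, 84.2, 143 and 81.5 CPM without ligand and at 37.9, 33.3, 17.0 and 9.08 CPM with bFGF (6.04-fold lower, log2 fold change -2.60, SE 0.21, adjusted p = 2.45e-07). *Vegfd*, a lymphangiogenic factor, fell from 523, 271, 439.6 and 372 to 213, 94.2, 94.7 and 79.4 CPM (log2 fold change -1.83, SE 0.13, adjusted p = 6.28e-08). *Vegfa*, the main angiogenic factor, rose from 72.0, 91.9, 81.8 and 96.3 to 99.6, 139, 151 and 189 CPM (log2 fold change 0.72, SE 0.09, adjusted p = 2.42e-05). Groups did not overlap in any of the 3 genes. The neurotrophin *Bdnf* rose from 47.7, 27.8, 54.4 and 60.9 to 149, 43.4, 143 and 147 CPM (log2 fold change 1.23, SE 0.12, adjusted p = 2.17e-06), least in pair 2.

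Chemokines and cytokines were examined because TAK1 links cytokine receptors to NF-κB. Of 30 chemokines 7 rose (23.3%) and 4 fell (13.3%), against 16.6% and 13.2% of genes of at least 1 CPM. Among all genes tested the shares were 9.28% and 7.41%. The groups did not overlap in 5 chemokines that were higher with bFGF and 2 that were lower. The shares of all genes tested without overlap were 7.01% and 3.24%. The chemokine list held 7, 8, 6 and 6 raised and 3, 5, 2 and 3 lowered members when replicates 1, 2, 3 and 4 were left out in turn. The unpaired counts were 5 and 0, and 5 raised and 2 lowered passed in the fit on all 40 libraries. *Ccl2* (ENSMUSG00000035385, chromosome 11, 82035571 to 82037453, plus strand), which attracts monocytes, was at 22.5, 44.6, 13.0 and 34.6 CPM without ligand and at 71.1, 78.6, 126 and 132 CPM with bFGF (3.71-fold, log2 fold change 1.89, SE 0.25, adjusted p = 5e-05). *Ccl7*, with the same receptor, was at 15.5, 17.5, 9.31 and 20.7 CPM without ligand and 29.8, 38.0, 46.3 and 54.8 CPM with bFGF (log2 fold change 1.43, SE 0.16, adjusted p = 1.04e-05). *Cx3cl1*, fractalkine, rose from 104, 126, 105 and 110.4 to 269.6, 177, 309 and 254 CPM (log2 fold change 1.14, SE 0.13, adjusted p = 9.43e-06), and in all 3 genes the groups did not overlap. *Cxcl12*, the ligand of CXCR4, was at 2779, 4129, 4588 and 3468 CPM without ligand and at 2749.7, 4043, 3009 and 2075 CPM with bFGF (log2 fold change -0.36, SE 0.10, adjusted p = 0.0226), with hardly any difference in pairs 1 and 2, and its call was lost without replicate 3 or 4. *Cxcl5* fell from 4.79, 24.9, 6.44 and 5.74 to 1.36, 17.9, 1.63 and 1.90 CPM (log2 fold change -1.38, SE 0.20, adjusted p = 0.000150). *Cxcl15* went from 0.775, 1.32, 0.691 and 0.491 to 0.0631, 0.268, 0 and 0 CPM (log2 fold change -3.32, SE 0.55, adjusted p = 0.000453). *Ccl2* rose by 3.16 in LacZ cells (difference -1.20, SE 0.37, unadjusted p = 0.00459, adjusted p = 0.854).

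Cytokines, NF-κB inhibitors and inflammatory enzymes rose in 12 (36.4%) of 33 cases and fell in 2 (6.06%), with a median of 0.20. The cytokine list held 11, 14, 10 and 11 raised and 1, 3, 1 and 0 lowered members when replicates 1, 2, 3 and 4 were left out in turn. Unpaired, 1 and 0 members passed, and the fit on all 40 libraries called 10 raised and 0 lowered. *Il11*, a profibrotic cytokine of the IL-6 family, was at 1.51, 4.11, 1.92 and 3.55 CPM without ligand and at 7.29, 5.18, 21.8 and 39.5 CPM with bFGF (log2 fold change 2.43, SE 0.38, adjusted p = 0.000237). *Il6* was at 1.73, 1.51, 1.53 and 3.02 CPM without ligand and 6.12, 2.07, 7.10 and 13.0 CPM with bFGF (log2 fold change 1.68, SE 0.24, adjusted p = 9.9e-05). *Ptgs2*, cyclooxygenase 2, rose from 16.5, 35.9, 24.1 and 33.7 to 21.3, 39.4, 95.1 and 99.7 CPM (log2 fold change 1.01, SE 0.22, adjusted p = 0.00395), mainly in pairs 3 and 4, and lost its call without replicate 4. *Ptges*, the prostaglandin E synthase that acts after it, rose from 24.8, 62.8, 40.8 and 44.8 to 46.8, 114, 94.3 and 107 CPM (log2 fold change 1.05, SE 0.09, adjusted p = 3.99e-07). *Vcam1*, a leukocyte adhesion molecule, went from 793, 527, 794 and 792 to 1971, 595, 2144 and 1405 CPM (log2 fold change 0.93, SE 0.15, adjusted p = 0.000280). *Nos2* had at most 2 reads in any of the 8 libraries, so no change can be given.

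Interferon-stimulated genes rose in 4 (11.8%) and fell in 6 (17.6%) of 34 cases, shares near the 16.6% and 13.2% of genes of at least 1 CPM, with a median of -0.06. Of all genes tested, 9.28% rose and 7.41% fell. In LacZ cells 19 rose and 0 fell, with a median of 0.44. The interferon list held 9, 5, 2 and 1 raised and 3, 6, 2 and 4 lowered members when replicates 1, 2, 3 and 4 were left out in turn. A fit with no pairing called 0 raised and 0 lowered, and with all 40 libraries in the fit 0 raised and 0 lowered were called. In 33 of 34 members the change was smaller in TAK1-deleted cells, with a median difference of -0.45, but 0 passed the adjusted interaction test and 5 had an unadjusted p under 0.05. The median difference was -0.23, -0.39, -0.69 and -0.50 without replicates 1, 2, 3 and 4. The medians of pairs 1 to 4 were -0.49, -0.06, 0.13 and 0.21 in deleted and 0.75, 0.60, -0.20 and 0.52 in LacZ cells. The 2 ranges overlap, and deleted cells had the lower median in pairs 1, 2 and 4 and the higher one in pair 3. Complement genes fell in 9 (39.1%) of 23 cases and rose in 2 (8.7%), with a median of -0.41. The complement list held 2, 2, 2 and 2 raised and 9, 12, 7 and 7 lowered members when replicates 1, 2, 3 and 4 were left out in turn. Without the pairing, 0 rose and 1 fell. *C3*, the central component, was at 539, 363, 503 and 587 CPM without ligand and at 331, 304, 217 and 277 CPM with bFGF (log2 fold change -0.83, SE 0.11, adjusted p = 7.54e-05), without overlap. *C1s1* and *C1ra*, the proteases of the first component, fell from 409, 509, 357 and 337 to 152, 413, 127 and 129 CPM (log2 fold change -1.17, SE 0.14, adjusted p = 2.14e-05) and from 189, 184, 163 and 141 to 88.8, 139.6, 68.7 and 64.3 CPM (log2 fold change -0.98, SE 0.11, adjusted p = 7.27e-06). *Masp1*, a protease of the lectin pathway, rose from 19.0, 55.9, 27.6 and 24.0 to 73.4, 118, 70.7 and 50.2 CPM (log2 fold change 1.34, SE 0.12, adjusted p = 7.19e-07).

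Transcription factors of cardiac fibroblast identity rose in 7 (22.6%) and fell in 9 (29%) of 31 cases, against 16.6% and 13.2% of genes of at least 1 CPM. The identity list held 6, 11, 4 and 4 raised and 7, 11, 6 and 5 lowered members when replicates 1, 2, 3 and 4 were left out in turn. In the unpaired fit 1 passed as raised and 0 as lowered, and 4 raised and 6 lowered passed in the fit on all 40 libraries. *Meox1*, a homeobox factor known from activated cardiac fibroblasts, was at 0.986, 1.97, 1.58 and 3.25 CPM without ligand and at 4.95, 5.36, 9.27 and 8.74 CPM with bFGF (log2 fold change 1.90, SE 0.20, adjusted p = 6.09e-06), without overlap. *Osr1* fell from 223, 114, 259 and 202 to 149.9, 101, 118 and 95.6 CPM (log2 fold change -0.75, SE 0.12, adjusted p = 0.000270). *Gata4* was at 95.1, 32.2, 76.5 and 64.1 CPM without ligand and 80.1, 26.6, 63.5 and 56.0 CPM with bFGF (log2 fold change -0.26, SE 0.07, adjusted p = 0.0211), a call that was lost without replicate 1, 3 or 4. The surface marker *Pdgfra* was at 1385, 2134, 1316 and 1365 CPM without ligand and 1102, 2322, 1088 and 1058 CPM with bFGF (adjusted p = 0.0702) and passed without replicate 2, and *Thy1* rose from 427, 393, 538 and 492 to 911, 608, 994 and 811 CPM (log2 fold change 0.82, SE 0.08, adjusted p = 2.89e-06). Targets of p53 were raised in 1 (4.76%) and lowered in 3 (14.3%) of 21 cases, no more than or near the shares of all genes of at least 1 CPM. Of all genes tested, 9.28% rose and 7.41% fell. *Cdkn1a*, the cell cycle inhibitor p21, was at 472, 426, 534 and 512 CPM without ligand and 487, 403, 512 and 506 CPM with bFGF (log2 fold change -0.04, SE 0.07, adjusted p = 0.806). The p53 list held 1, 3, 1 and 1 raised and 4, 6, 3 and 3 lowered members when replicates 1, 2, 3 and 4 were left out in turn. Dropping the pairing left 0 raised and 1 lowered. Of 15 genes of the TAK1 complex and its partners 2 (13.3%) rose and 1 (6.67%) fell. Both shares lay below those of genes of at least 1 CPM, and the raised share lay above the 9.28% of all genes tested. *Map3k7* itself had a log2 fold change of 0.24 (adjusted p = 0.0294), a call that was lost without replicate 1, 3 or 4. The TAK1 complex list held 0, 2, 0 and 0 raised and 0, 1, 0 and 0 lowered members when replicates 1, 2, 3 and 4 were left out in turn. The unpaired counts were 0 and 0, and the fit on all 40 libraries called 2 raised and 0 lowered.

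Outside the lists, the largest rises among genes of at least 1 CPM in the higher group included surface molecules. *P2rx1* (ENSMUSG00000020787, chromosome 11, 72999103 to 73015200, plus strand), an ATP-gated ion channel, was at 0.0352, 0.0329, 0.281 and 0.453 CPM without ligand and at 3.85, 0.908, 8.03 and 5.92 CPM with bFGF (log2 fold change 4.61, SE 0.32, adjusted p = 6.78e-08). *Selp* (ENSMUSG00000026580, chromosome 1, 164115264 to 164150026, plus strand), P-selectin, was at 2.61, 1.84, 6.82 and 4.57 CPM without ligand and at 49.9, 14.4, 94.7 and 61.1 CPM with bFGF (13.1-fold, log2 fold change 3.72, SE 0.15, adjusted p = 9.42e-10). *Sele* (ENSMUSG00000026582, chromosome 1, 164048234 to 164057677, plus strand), E-selectin, was at 2.01, 1.35, 1.45 and 3.17 CPM without ligand and 20.3, 4.54, 32.9 and 30.6 CPM with bFGF (log2 fold change 3.31, SE 0.28, adjusted p = 3.93e-07). The selectins bind leukocytes and are known mainly from endothelium. Of the 7 endothelial markers, *Cdh5* and *Emcn* rose, *Kdr*, *Tek* and *Vwf* fell, with log2 fold changes from -1.76 (*Kdr*) to 3.80 (*Emcn*), and *Pecam1* and *Egfl7* did not pass. Their sum was between 15.8 and 23.3 CPM without ligand and between 13.4 and 20.0 CPM with bFGF, and their part in the rise of the selectins was not tested. *Pecam1* was at 0.986, 0.559, 0.367 and 0.378 CPM without ligand and 0.726, 0.878, 1.00 and 1.08 CPM with bFGF (adjusted p = 0.205), and *Cdh5*, VE-cadherin, was at 0.916, 2.07, 0.778 and 0.756 CPM without ligand and 2.11, 5.46, 2.90 and 3.50 CPM with bFGF (log2 fold change 1.64, SE 0.22, adjusted p = 5.55e-05). *Sele* rose by 4.61 in LacZ cells (difference -1.27, unadjusted p = 0.0187, adjusted p = 0.892). The other large rises belonged to *Fer1l6* (log2 fold change 3.30, SE 0.27), *Clvs1* (3.25, SE 0.47), the long noncoding RNA *D5Ertd615e* (0.0352, 0.132, 0 and 0.302 CPM without ligand, 1.10, 1.44, 1.00 and 4.80 CPM with bFGF, log2 fold change 4.25, SE 0.42) and the predicted gene *Gm8104* (3.24, SE 0.49), and 4 genes of the dividing cell. These were the mitotic kinase *Pbk* (3.23, SE 0.18), the E2F family repressor *E2f8* (3.07, SE 0.20), the cohesin acetyltransferase *Esco2* (3.02, SE 0.23) and the kinesin *Kif14* (2.97, SE 0.22). *Ace*, angiotensin-converting enzyme, was among the 5 genes with the largest gain in CPM, from 679.7, 644, 613 and 889.8 to 1914, 885, 1935 and 2030.3 CPM (log2 fold change 1.19, SE 0.14, adjusted p = 1.52e-05), together with *Spp1*, *Ccn2*, *Bgn* and *Fbln2*, fibulin 2 (log2 fold change 0.28, with its call lost without replicate 1 or 4).

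Large falls by the same rule are given in no order of size. *Clec3b* (ENSMUSG00000025784, chromosome 9, 123150946 to 123157432, plus strand), the plasminogen-binding protein tetranectin, was at 90.8, 9.54, 33.3 and 17.6 CPM without ligand and 7.86, 2.98, 1.90 and 1.23 CPM with bFGF (log2 fold change -3.24, SE 0.27, adjusted p = 3.39e-07). *Gdpd2*, a glycerophosphodiesterase, was at 17.7, 12.1, 37.4 and 13.1 CPM without ligand and 2.02, 3.36, 3.03 and 0.930 CPM with bFGF (log2 fold change -3.03, SE 0.23, adjusted p = 1.55e-07). *Akr1c14*, a hydroxysteroid dehydrogenase, fell from 67.6, 20.1, 45.4 and 40.3 to 12, 5.79, 8.57 and 6.10 CPM (log2 fold change -2.36, SE 0.12, adjusted p = 1.15e-08). *Clca3a2* (-2.90, SE 0.18), *Gm12248* (-2.75, SE 0.35), *Itih4* (-2.61, SE 0.20), *Mlana* (6.55, 1.28, 2.85 and 2.57 CPM without ligand, 1.26, 0.432, 0.467 and 0.447 CPM with bFGF, log2 fold change -2.27, SE 0.24) and *Lrrc14b* (-2.16, SE 0.27) were further falls by the rule, with *Chrdl1*, *Angpt2* and *Sfrp2*. *Clca3a2* and *Akr1c14* belong to gene families with close copies, between which reads may have been split. The largest losses in CPM were those of *Col3a1*, *Col1a1*, *Col1a2*, *Cxcl12* and *Gsn*, the actin-severing protein gelsolin, which fell from 5815, 2024, 3076 and 2558 to 3432, 1619, 1900.3 and 1391 CPM (log2 fold change -0.68, SE 0.08, adjusted p = 2.23e-05).

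**Figure D5:**
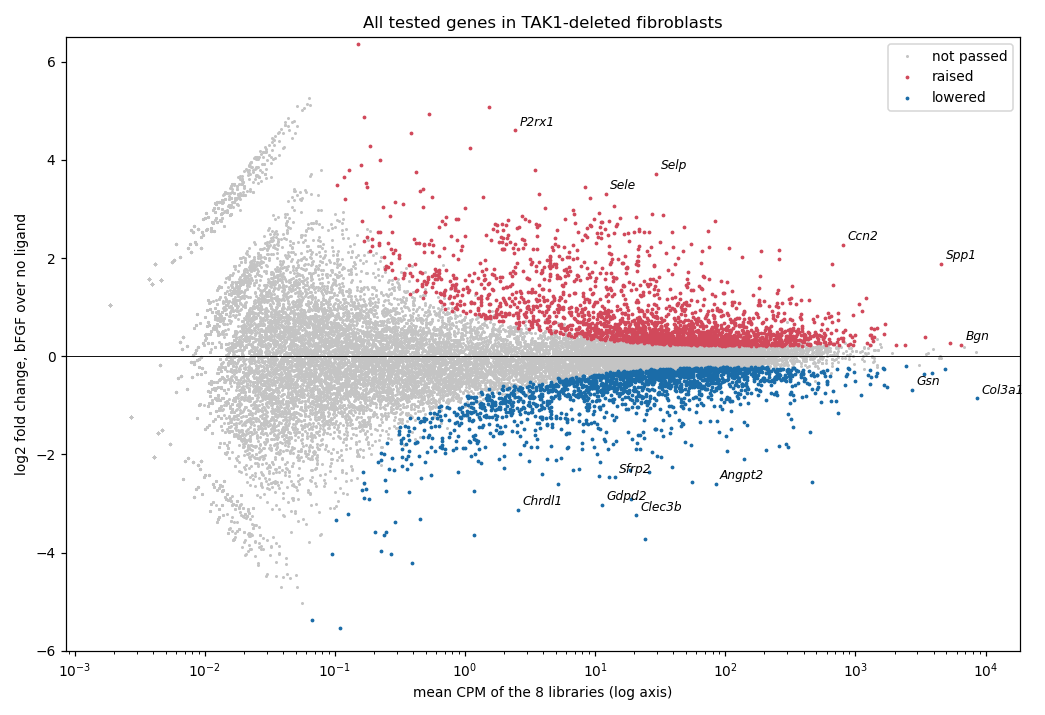
Log2 fold change with bFGF (y axis, edgeR) against the mean CPM of the 8 libraries of TAK1-deleted fibroblasts (x axis, log scale) for the genes tested that had reads in them. Red points are the 2340 raised and blue points the 1867 lowered genes, and 13 genes are named, from *P2rx1* at 4.61 to *Clec3b* at -3.24.

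Against the LacZ response, the direction was shared for most genes. LacZ cells had 3581 raised (14.2%) and 3299 lowered genes (13.1%) with bFGF, and 2097 genes were raised in both genotypes, 89.6% of those raised in TAK1-deleted and 58.6% of those raised in LacZ cells. For lowered genes, 1622 were shared, 86.9% and 49.2% of the 2 sets, and 3 genes were called in opposite directions. The larger LacZ counts do not test a difference between genotypes, which the interaction does. The interaction called 0 genes in edgeR with RLE scaling, a GC correction, all 40 libraries, filterByExpr, protein-coding genes alone or no block. It also called 0 in DESeq2 without the block and in edgeR without replicate 1 or 4, and 1 without replicate 3. By the lowest interaction p-values, the 5 genes with a higher change in deleted cells were *Plxna4*, *Olfml2b*, *Zfp703*, *Sema3d* and *Ankrd55*. *Plxna4*, a semaphorin receptor, was at 19.5, 6.94, 14.9 and 14.3 CPM without ligand and 13.9, 5.80, 15.9 and 16.8 CPM with bFGF in deleted cells (log2 fold change -0.11) and at 26.9, 8.74, 17.8 and 13.9 CPM without ligand and 8.56, 3.01, 6.15 and 8.57 CPM with bFGF in LacZ cells (log2 fold change -1.35), a difference of 1.28 (SE 0.22, unadjusted p = 1.57e-05, adjusted p = 0.198). Its adjusted p was 0.0158 without replicate 2, 0.00132 in DESeq2 with the block and 0.0144 with no filter. *Sema3d*, a secreted semaphorin, rose from 192, 53.8, 108 and 103 to 263, 67.4, 244 and 194 CPM in deleted cells (log2 fold change 0.71, SE 0.11, adjusted p = 0.000337) and was at 199, 64.8, 133 and 129.6 CPM without ligand and 201, 47.0, 126 and 141 CPM with bFGF in LacZ cells (log2 fold change -0.10, difference 0.83, adjusted p = 0.380). The adjusted p of *Sema3d* was 0.0103 without replicate 2, 0.0207 in DESeq2 with the block and 0.0340 with no filter. *Olfml2b*, *Zfp703* and *Ankrd55* had differences of 0.67, 0.53 and 1.09, and all 3 fell in LacZ cells, by log2 fold changes of -0.76, -0.55 and -1.56, while in deleted cells they did not pass (-0.10, -0.02 and -0.49), apart from *Ankrd55* without replicate 2. The adjusted p of the difference was 0.380, 0.380 and 0.380 in edgeR and 0.00614, 0.00177 and 0.00256 in DESeq2 with the block, and without replicate 2 it was 0.0140, 0.0394 and 0.0541. With no filter it was 0.0474, 0.0968 and 0.102.

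On the other side stood *Gpcpd1*, *Etv5*, *Cldn15*, *Etv4* and *Il1rl1*. *Gpcpd1*, a glycerophosphocholine phosphodiesterase, was at 43.0, 37.2, 39.2 and 38.4 CPM without ligand and 73.3, 40.9, 55.8 and 48.4 CPM with bFGF in deleted cells (log2 fold change 0.42, SE 0.10, adjusted p = 0.00550, a call that was lost without replicate 1) and at 48.8, 50.9, 50.1 and 46.4 CPM without ligand and 143, 107, 145 and 108 CPM with bFGF in LacZ cells (log2 fold change 1.35). The difference was -0.89 (SE 0.15, unadjusted p = 1.14e-05, adjusted p = 0.198), and its adjusted p was 0.00292 without replicate 2, 0.00132 in DESeq2 with the block and 0.0144 with no filter. *Cldn15*, a tight junction protein, changed by 0.80 in deleted and 1.79 in LacZ cells (difference -0.97, adjusted p = 0.397, 0.0287 without replicate 2, 0.00663 in DESeq2 with the block and 0.0684 with no filter). *Il1rl1*, the IL-33 receptor ST2, was at 2.15, 359.9, 1.14 and 5.86 CPM without ligand and 1.89, 307, 3.20 and 9.27 CPM with bFGF in deleted cells and at 0.438, 172, 0.468 and 2.07 CPM without ligand and 2.98, 636, 1.29 and 14.5 CPM with bFGF in LacZ cells. Replicate 2 was far above the others in all 4 groups, and in deleted cells the change (log2 fold change 0.29, adjusted p = 0.391) passed only without that replicate. The difference between the genotypes was -1.76 (adjusted p = 0.434), with an adjusted p of 0.0340 with no filter, 0.0302 without replicate 3, 0.105 without replicate 2 and 0.237 in DESeq2 with the block.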

How the data were processed

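Polyadenylated RNA of mouse cardiac fibroblasts was sequenced single-end. The authors checked reads with FastQC, aligned them with STAR to mm10 and deposited raw counts per gene made with HTSeq 0.10.0. The annotation release and strand setting are not given in the sources used here, so overlapping genes on opposite strands may share reads. Genes with at least 10 counts over the 40 libraries were tested with edgeR 4.0.16 (R 4.3.3), as TMM-scaled counts in a quasi-likelihood fit with replicate number and ligand as terms over 8 libraries, with Benjamini-Hochberg adjustment and a threshold of 0.05. Numbers were taken as pairs because deviations of same-numbered libraries from their group means correlated by 0.71, 0.76, 0.46 and 0.72 over 13214 genes, and by at most 0.01, -0.32, 0.21 and 0.38 with another number. The labels do not say that a number marks one animal. The SE is the log2 fold change divided by the square root of the F statistic. The interaction used 16 libraries with replicate, virus and ligand. The fit was tested on simulated data.

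Members and gene lists were chosen with earlier results of these data known. Genes were named as list members with the lowest adjusted p or the largest change, besides others of known role chosen after their values were seen. Named over all genes were the 12 raised and 12 lowered with the largest log2 fold change among genes that averaged 1 CPM or more in the higher group, no overlap and 1 direction in all 4 pairs, the 5 in each direction with the largest CPM difference, the 5 in each direction with the lowest interaction p, and *Map3k7*. Some genes that met the rule are not reported here, among them 1 of the 12 lowered. Gene positions are those of GENCODE M21 (GRCm38), which held 52133 of the 55414 identifiers and 99.59% of counts. The alternatives were fits without the block, DESeq2 1.42.0 with and without it, other scaling, filters, a GC correction, all 40 libraries, protein-coding genes only and leaving out each replicate.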

Additional observations from a re-analysis of the deposited data

Results flagged for a closer look

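Each of the 174 named genes was checked for a library of TAK1-deleted cells far from the other 3 of its group, by Dixon's ratio of the gap to the range of the group, with 0.829 as the critical value for 4 samples. Chance flags about 1 in 20 groups, and 31 of 348 groups passed. Replicate 1 was the highest library with bFGF for *Eln* (0.989), *Vegfd* (0.885) and *Mlana* (0.958). Replicate 2 was the highest library with bFGF for *Ogn* (0.844), *Aspn* (0.872), *F3* (0.87), *Igfbp6* (0.936), *Cxcl5* (0.967), *C1s1* (0.912), *Pdgfra* (0.965) and *Il1rl1* (0.976). Replicate 2 was the lowest library with bFGF for *Ccnd1* (0.896), *Dkk1* (0.9), *Bdnf* (0.938) and *Ace* (0.899). Replicate 4 was the highest library with bFGF for *Mmp1a* (0.876) and *D5Ertd615e* (0.883). Replicate 1 was the highest library without ligand for *Col15a1* (0.886), *Eln* (0.839) and *Tnxb* (0.843). Replicate 2 was the highest library without ligand for *Ets2* (0.948), *Igfbp6* (0.96), *Cxcl5* (0.918), *Cemip* (0.836), *Cdh5* (0.878), *Pdgfra* (0.915) and *Il1rl1* (0.987). Replicate 2 was the lowest library without ligand for *Bgn* (0.877) and *Vcam1* (0.991). Replicate 4 was the highest library without ligand for *Frzb* (0.872) and *Il6* (0.859). Of the 31, 12 concerned the bFGF library of replicate 2.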

How the results depend on the processing

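The number of genes that changed with bFGF kept within 1.5 times of 4207 in DESeq2 with the block (3939), with RLE scaling, a GC correction, all 40 libraries, either filter on low counts and protein-coding genes alone. Without the replicate block, which pairs the libraries, 610 genes were called, 450 raised and 160 lowered, and raised genes were 73.8% of calls against 55.6% with it. DESeq2 without the block called 1998, 1138 raised and 860 lowered, and a minimum change of 1 on the log2 scale left 1049, 632 raised and 417 lowered. Leaving out 1 replicate number gave between 2100 and 6547 calls, between 1146 and 3335 raised and between 849 and 3212 lowered, with the highest counts without replicate 2. The interaction had 60 calls in DESeq2 with the block, 7 with no filter and between 0 and 66 when 1 replicate was left out. It had 0 in the main fit and in edgeR and DESeq2 without the block. RLE scaling, the GC correction, all 40 libraries, filterByExpr and protein-coding genes alone also gave 0. Members of the ERK list that were higher in TAK1-deleted than in LacZ cells numbered 1 without ligand and 0 with bFGF when the block was dropped, and between 25 and 29 and between 11 and 19 when 1 replicate was left out.

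Of 70 counts of called list members, 28 moved by more than 1.5 times in the fit on all 40 libraries, 59 without the block, 51 in DESeq2 without the block, 11 with filterByExpr and between 9 and 26 when 1 replicate was left out, against 2 in DESeq2 with the block. Of 174 named genes, 101 lost their call without the block, 48 in DESeq2 without the block, 5 in DESeq2 with it, 26 with all 40 libraries, 63 at a minimum change of 1, 11 with filterByExpr, 7 among protein-coding genes, 3 with the GC correction, and 10, 0, 9 and 19 without replicates 1, 2, 3 and 4. Those that changed sign had not passed the test. *Fgfr1* had -0.0040 in DESeq2 without the block, -0.0023 with it and with RLE scaling, -0.0055 with filterByExpr and between -0.0415 and 0.0525 when 1 replicate was left out. *Zfp703* had 0.0263 with the GC correction and between -0.0884 and 0.0128 when 1 replicate was left out, and *Il1rl1* had -0.2295 without the block. The causes were not tested. The changes of *Mmp1a* and *Dkk1* rest on few reads without ligand.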
